A study of Mus musculus with 8 samples.

Results

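Inhibitory transmission in the cortex is followed here through 28 genes: subunits of the receptors for GABA, the enzymes and transporters that make, load, take up and break down GABA, scaffold proteins of the inhibitory synapse, genes of inhibitory interneurons and a pair of chloride transporters. They were chosen by name, with earlier results of these data known, as the rows of the expression table that carry one of these symbols. All 28 were among the 24344 distinct symbols of the table, each on 1 row, and all 28 passed the filter on low values, which left 12377 genes to test. The tissue was a homogenate of occipital cortex, taken at postnatal day 35 from C57BL/6J mice. One group of 4 libraries came from mice with free access to food, called fed below, and the other group of 4 from mice that had fasted for 48 h. The labels give no further treatment, no altered allele and no sex, and do not say whether mice were pooled. C57BL/6J is known to carry a spontaneous intronic deletion in Gabra2 that lowers its expression, and as both groups are of this strain the Gabra2 values below are those of that background. The values are FPKM, sequenced fragments scaled to the length of the transcript and the depth of the library, a unit in which the levels of different genes can be compared.

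GABA is the main inhibitory transmitter of the adult cortex. It is made from glutamate by the decarboxylases GAD67 and GAD65, loaded into vesicles by VGAT, and sensed by GABA-A receptors, which are chloride channels built of 5 subunits, and by GABA-B receptors, which act through G proteins. The alpha subunit of a GABA-A receptor sets much of its kinetics, its place at or outside the synapse and its response to drugs, and the direction of chloride flow depends on the exporter KCC2 and the importer NKCC1.

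The depth, estimated from the spacing of low FPKM values, was 16900000 to 21300000 fragments per library and is uncertain, because the search was confined to a range. At that depth the thinnest value among the 28 genes, for Calb2, stood for about 134 fragments. Over all genes 1183 were higher and 2015 lower in fasted cortex (limma on log2(FPKM + 1), Benjamini-Hochberg adjusted p under 0.05), which is 25.8% of those tested, 9.56% higher and 16.3% lower. This balance moved with the scaling between libraries. The shares higher and lower were 14.1% and 15.8% by median ratios, 14.5% and 15.4% by quantiles, 16.0% and 16.4% once offsets for GC content and length were added, and 12.8% and 4.29% when every library was scaled to an equal sum. The equal sum rests on rows of single microRNA genes, of which Mir684-1 was listed at 40326 FPKM in fed replicate 2 and at 0 in the 7 other libraries, and it moved the median log2 change of all genes from -0.02 to 0.08. Fed replicate 3 held both Xist (32.2 FPKM) and transcripts of the Y chromosome (20.2 FPKM over 4 genes), while every other library held one of them at 37.1 FPKM or more and the other at 0.0495 FPKM or less. Without that library 833 genes were higher and 1362 lower, and the calls among the 28 genes were unaltered. The cortical excitatory marker Slc17a7 lay between 354 and 441 FPKM in the 8 libraries, and the striatal markers Drd2 and Adora2a reached at most 0.758 and 0.523 FPKM. Summed marker levels were 115 to 159 in fed and 99.4 to 115 in fasted libraries for microglia, 111 to 131 in fed and 91.5 to 103 in fasted libraries for vessels and 73.5 to 93.3 in fed and 93.2 to 102 in fasted libraries for 11 striatal genes, of which 1 was at 0 in all libraries. For 8 hippocampal genes the sum was 28.4 to 38.3 in fed and 29.9 to 48.5 in fasted libraries, with overlap. Of the 5 of them tested, 0 were called, and their median log2 change was 0.13. The part of these shifts in the results below was not tested.

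After 48 h without food 5 of the 28 genes were lower and 0 were higher (limma, adjusted p under 0.05). The lower genes were Gabra2, Gabrb1 and Gabrb2, which encode subunits of the GABA-A receptor, and Dlx6os1 and Sox6 among the interneuron genes. With 16.3% of all tested genes lower and 9.56% higher, 5 of 28 is a share near the background. At an unadjusted p under 0.05 there were 9 lower and 2 higher, beside 23.3% and 15.3% of all tested genes. The median log2 change was -0.05 over the 28 genes and -0.02 over all tested genes. Fed and fasted values stood apart without overlap for 6 of the 28 genes, 5 lower and 1 higher, against 27.6% of all tested genes (16.5% lower and 11.1% higher). When the replicate number entered the fit as a block, 9 of the 28 were lower and 1 was higher, beside 22.1% and 14.3% of all tested genes. No label states the pairing behind the block. Over all tested genes, sex-linked ones among them, 8 of the 8 libraries correlated best with their own number. Over autosomal coding genes 5 did. There r was 0.0761 for number 3, and fed replicate 2 correlated better with fasted replicate 1 (0.227) than with fasted replicate 2 (0.193). The calls added by the block were Gabrd, Gabbr1, Slc6a11 and Calb2, lower, and Gad1, higher. In bulk tissue, fewer cells of a type and less RNA per cell cannot be told apart.

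**Figure D1:**
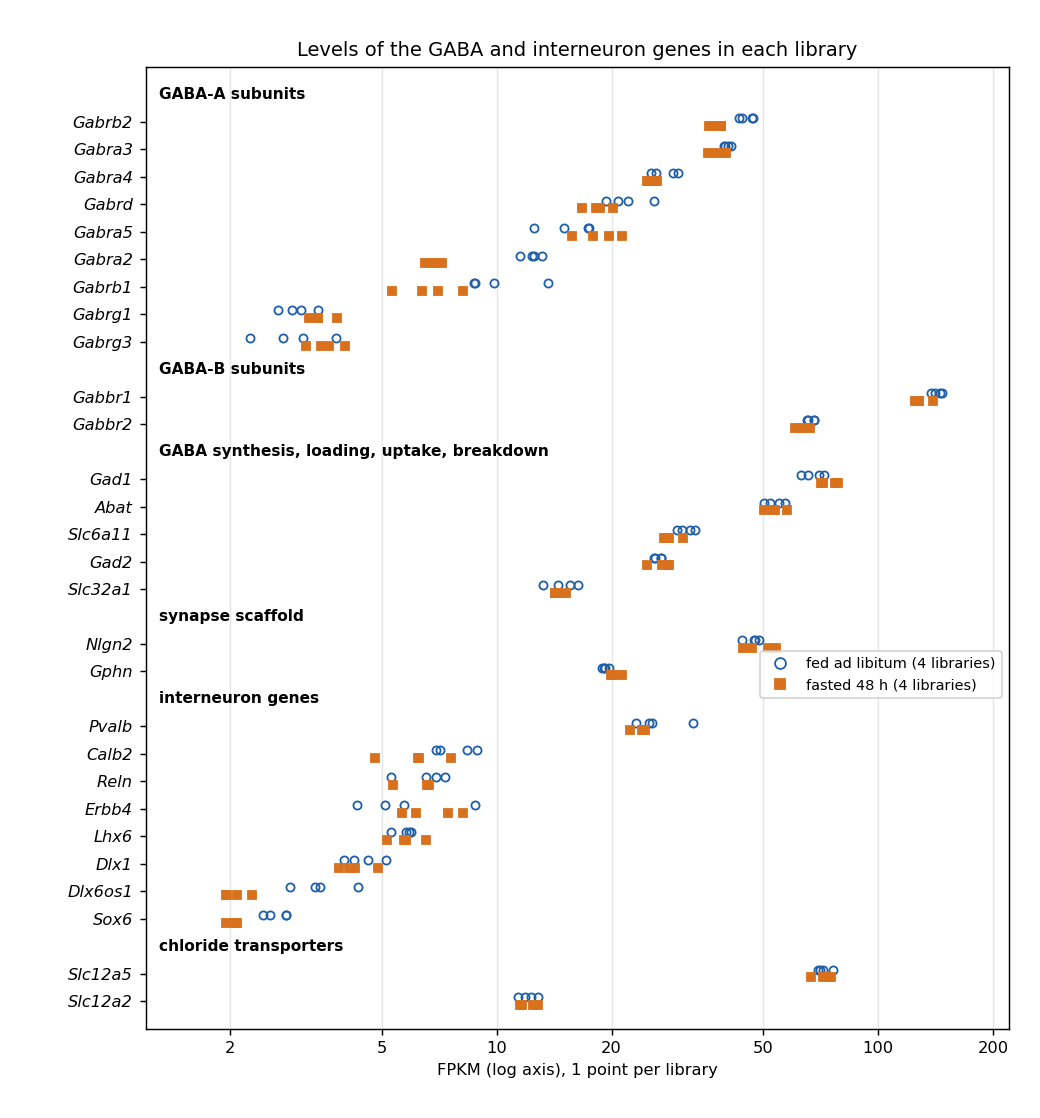
FPKM of each of the 28 genes in the 4 fed and 4 fasted libraries on a log axis, 1 point per library, with genes grouped by role. Gabra2, Gabrb1, Gabrb2, Dlx6os1 and Sox6 have all fasted points below all fed points, Gphn has all fasted points above, and the points of the other 22 genes overlap.

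**Figure D2:**
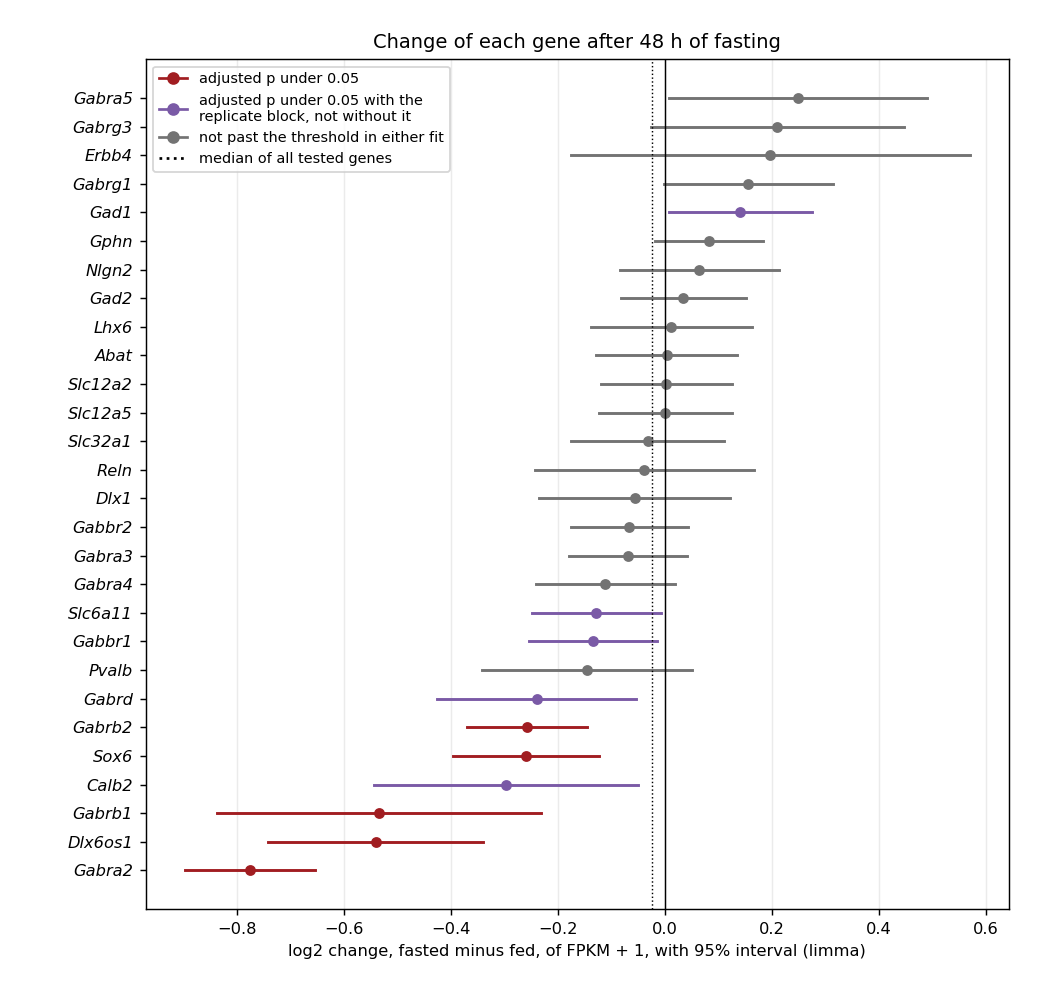
Log2 change of each gene, fasted minus fed, on the scale of log2(FPKM + 1), with its 95% interval from limma. The 5 genes past the threshold, the 5 that pass once the replicate block is added and the 18 others are coloured apart, and Gabra2 lies farthest from 0, at -0.78.

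Of the receptor genes called lower in fasted cortex, Gabrb2 lies on chromosome 11, while Gabra2 and Gabrb1 lie in a cluster on chromosome 5. The cluster is made of 4 neighbouring genes, Gabrg1, Gabra2, Gabra4 and Gabrb1, of which Gabrg1 and Gabra4 did not pass the test. The 250 bases before the transcript start are shown for 3 of them, to set the start region of Gabra2, the gene with the largest change of the 28, beside those of its neighbours (RefSeq windows, build GRCm38.p6, each read 5′ to 3′ on the strand of its gene, with capitals marking a GC box). They lie at chr5:70842618-70842867 for Gabrg1 and chr5:71095850-71096099 for Gabra2, both on the minus strand, and at chr5:71699682-71699931 for Gabrb1 on the plus strand. For Gabrb1 the RefSeq start farthest downstream was taken, and for the other genes the first RefSeq entry. The Gabrb1 start so taken lies inside the gene as GENCODE annotates it, and the window before it takes in an exon of the gene Gm38562.
Gabrg1: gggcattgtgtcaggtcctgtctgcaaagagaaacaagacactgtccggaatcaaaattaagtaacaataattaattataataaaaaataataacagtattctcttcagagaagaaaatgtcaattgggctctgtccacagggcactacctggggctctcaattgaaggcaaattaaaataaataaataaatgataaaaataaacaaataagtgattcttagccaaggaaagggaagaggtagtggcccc
Gabra2: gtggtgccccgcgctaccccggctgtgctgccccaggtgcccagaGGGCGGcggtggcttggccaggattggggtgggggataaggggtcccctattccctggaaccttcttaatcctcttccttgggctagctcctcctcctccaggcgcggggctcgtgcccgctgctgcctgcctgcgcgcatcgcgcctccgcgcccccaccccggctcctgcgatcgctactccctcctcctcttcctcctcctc
Gabrb1: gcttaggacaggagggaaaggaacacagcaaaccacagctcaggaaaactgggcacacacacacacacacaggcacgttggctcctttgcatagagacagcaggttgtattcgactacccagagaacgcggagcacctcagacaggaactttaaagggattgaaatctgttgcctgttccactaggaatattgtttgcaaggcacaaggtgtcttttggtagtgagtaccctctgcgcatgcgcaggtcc
The window of Gabra2 was rich in G and C (70%, with 18 CpG pairs) and held 1 GC box. That of Gabrg1 had 35.6% G and C with 1 CpG pair, and that of Gabrb1 50.8% with 6. The window of Gabra4, which takes in a Gabrb1 exon and is not shown, had 61.2% with 2 GC boxes. The median over all 32851.0 windows was 52.4%. Both strands were searched for 6 motifs: the GC box (GGGCGG, in 32.7% of all windows), the TATA box (TATAAA, 12.4%), a single site of the glucocorticoid response element (AGAACA, 16.1%), the cAMP response element (TGACGTCA, 1.55%), a FoxO site (GTAAACA, 3.17%) and an E-box (CACGTG, 6.02%). Apart from the GC boxes named, none of the 6 was found in the windows of the 4 genes. A match or its absence describes these letters only.

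Gabra2 encodes the alpha2 subunit of benzodiazepine-sensitive synaptic receptors, enriched at the axon initial segment. It spans bases 70957597 to 71095849 of chromosome 5. Its level was 11.5, 12.4, 12.6 and 13.1 FPKM in fed replicates 1 to 4 and 6.87, 6.46, 7.17 and 6.76 FPKM in fasted replicates 1 to 4. The fasted libraries lay in a narrow band well below all fed ones. The mean was 12.4 FPKM ± 0.662 in fed and 6.82 ± 0.291 in fasted cortex (SD, n = 4 per group), 44.97% lower. The log2 change was -0.78 with SE 0.0555 (limma adjusted p = 1.85e-05), and by size Gabra2 was within the top 0.501% of tested genes. It was called under 19 of 19 alternatives, with log2 changes from -0.85 to -0.66.

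Gabrb1, which encodes the beta1 subunit, lies at 71658113 to 72149037 on chromosome 5. Its level was 8.77, 9.82, 8.72 and 13.6 FPKM in fed replicates 1 to 4 and 5.31, 6.37, 8.17 and 6.999 FPKM in fasted replicates 1 to 4. Fed replicate 4 was the highest, and the highest fasted library came close to the lowest fed one. The log2 change was -0.53 with SE 0.138 (limma adjusted p = 0.0159), and the mean was 34.4% lower. The call ended when libraries were scaled to an equal sum without the 10 most abundant genes (adjusted p = 0.0584, the highest over the 19 alternatives, the lowest being 0.00363). The annotated start regions of Gabrb1 and Gabra4 overlap by 196 bases on opposite strands. Without knowing whether strand was used in counting, reads from that stretch cannot be told apart.

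The other genes of the cluster did not pass. Gabra4 encodes alpha4, which pairs with delta in receptors outside the synapse and does not respond to classical benzodiazepines. It averaged 27.6 FPKM ± 2.11 in fed and 25.4 ± 0.766 in fasted cortex (SD, n = 4 per group), with a log2 change of -0.11 (95% interval -0.24 to 0.02, limma adjusted p = 0.187). Gabrg1, which encodes the less common gamma1 subunit, averaged 3.01 FPKM ± 0.302 in fed and 3.46 ± 0.254 in fasted cortex (SD, n = 4 per group), with a log2 change of 0.16 (95% interval 0.00 to 0.31, limma adjusted p = 0.135). It passed as higher by quantile scaling (adjusted p = 0.0471) and with GC and length offsets (0.0202). The differences in change between these neighbours were not tested.

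**Figure D3:**
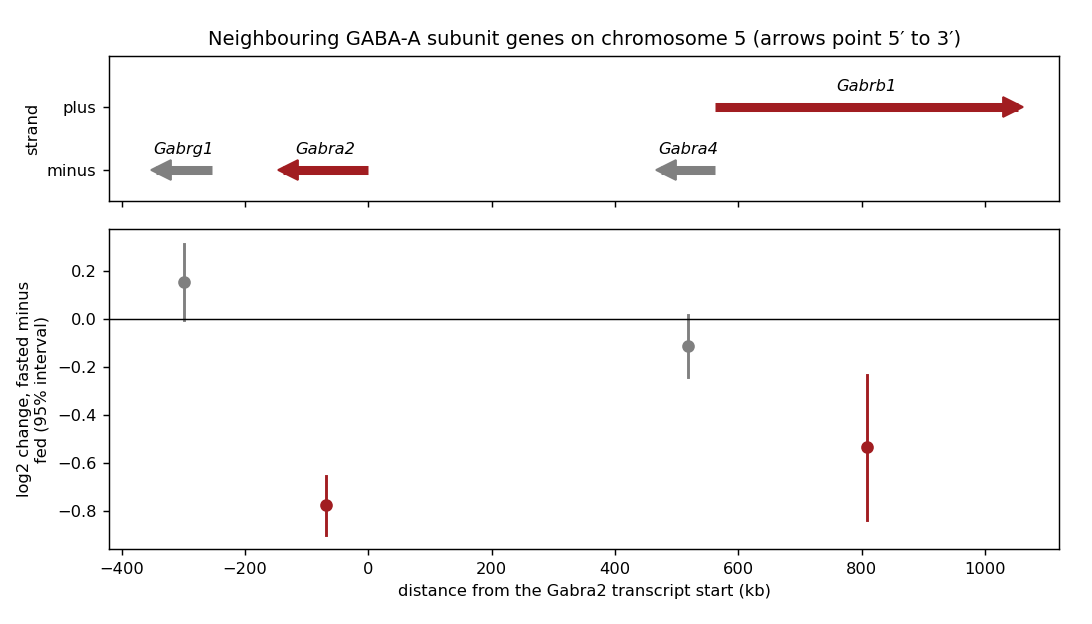
The 4 neighbouring GABA-A subunit genes on chromosome 5 drawn to scale by distance from the Gabra2 transcript start in kb, with the strand of each, and the log2 change of each gene. Gabra2 at -0.78 and Gabrb1 at -0.53 lie below 0, and the intervals of Gabra4 and Gabrg1 include 0.

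Gabrb2 encodes beta2, a subunit of the most common GABA-A receptor of the adult brain, and lies on chromosome 11 at 42419757 to 42629028. Its level was 44.0, 43.1, 47.1 and 46.6 FPKM in fed replicates 1 to 4 and 37.1, 36.0, 38.8 and 38.7 FPKM in fasted replicates 1 to 4. Both groups were tight and did not overlap. The mean was 16.7% lower in fasted cortex, a log2 change of -0.26 with SE 0.0512 (limma adjusted p = 0.00447). Scaling to an equal sum, in which the median of all genes moved up, ended the call (log2 change -0.13, adjusted p = 0.394).

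Gabra3, on the X chromosome, was the most abundant of the 4 alpha subunit genes among the 28. Its subunit is known from monoamine nuclei and deep cortical layers. It averaged 40.1 FPKM ± 0.752 in fed and 38.2 ± 1.88 in fasted cortex (SD, n = 4 per group), with a log2 change of -0.07 (95% interval -0.18 to 0.04, limma adjusted p = 0.331). Gabra5 encodes alpha5, a subunit of receptors largely outside the synapse, and overlaps a neighbouring subunit gene in the annotation, so the same limit on shared reads holds. Its level was 12.5, 17.4, 17.5 and 15.0 FPKM in fed replicates 1 to 4 and 19.7, 17.9, 21.2 and 15.8 FPKM in fasted replicates 1 to 4. The fasted library was the higher one in 4 of 4 replicate numbers, but the groups overlapped. The log2 change of 0.25 with SE 0.110 did not pass (limma adjusted p = 0.119), though it did with equal-sum scaling (0.00923). Without fed replicate 1, its lowest library, the change was smaller (0.15, adjusted p = 0.280). The summed FPKM of 8 hippocampal markers was likewise lowest in fed replicate 1 (28.4), and among fasted libraries in replicate 4 (29.9). Their part in the Gabra5 values was not tested.

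Shares of the summed FPKM of these 4 alpha genes do not depend on any single factor applied to a library. Other alpha genes are left out of the sum. Gabra2 made up 12.4%, 12.8%, 12.4% and 14.1% in fed replicates 1 to 4 and 7.49%, 7.6%, 7.57% and 7.98% in fasted replicates 1 to 4. Gabra5 made up 16.3% ± 2.02 in fed and 20.9% ± 1.62 in fasted libraries (SD, n = 4 per group). The groups did not overlap for either share, Gabra2 being lower and Gabra5 higher in each fasted library. The difference was -5.30 percentage points for Gabra2 and 4.63 for Gabra5. By an exact permutation test, two-sided over 70 assignments, each had p = 0.0286, the smallest this design allows, and 0.0571 after adjustment over the 4 shares. Gabra3 made up 41.9% ± 0.918 in fed and 42.9% ± 0.954 in fasted libraries and Gabra4 28.8% ± 1.92 in fed and 28.6% ± 0.743 in fasted libraries (SD, n = 4 per group), with adjusted p = 0.267 and 0.886 by the same exact test. The 4 shares sum to a whole and are not independent.

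**Figure D4:**
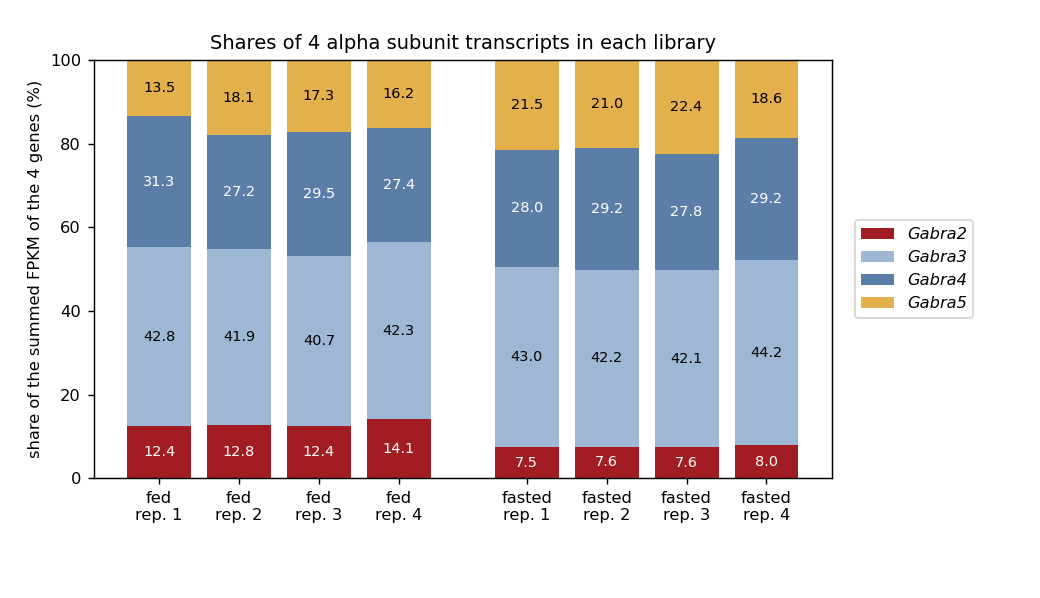
Share of Gabra2, Gabra3, Gabra4 and Gabra5 in their summed FPKM, in percent, 1 bar per library. The Gabra2 share is smaller, and the Gabra5 share larger, in every fasted library than in any fed one.

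Gabrd encodes delta, the subunit of receptors that carry tonic inhibition. Its level was 25.8, 22.1, 20.8 and 19.3 FPKM in fed replicates 1 to 4 and 18.2, 18.6, 16.7 and 20.1 FPKM in fasted replicates 1 to 4. Replicate 4 was the single number in which the fasted library was not the lower one, and through it the groups overlapped. For Gabrd the log2 change was -0.24 with SE 0.0844 (limma adjusted p = 0.0570). It passed with the replicate block (adjusted p = 0.0410), without fed replicate 4 (0.0129) and without fasted replicate 4 (0.0440). Over the 19 alternatives its log2 change ran from -0.30 to -0.12 and its adjusted p from 0.0129 to 0.471. The ratio of Gabra4 to Gabrd, whose products assemble together, was 1.12 to 1.43 in fed and 1.23 to 1.58 in fasted libraries (exact two-sided permutation p = 0.229, adjusted over 4 ratios 0.419). Gabrg3, which encodes gamma3, averaged 2.97 FPKM ± 0.647 in fed and 3.56 ± 0.348 in fasted cortex (SD, n = 4 per group), with a log2 change of 0.21 (limma adjusted p = 0.175). It passed as higher without fed replicate 4 (adjusted p = 0.0243) and by equal-sum scaling (0.0390), while without fed replicate 2 the change was smaller (0.12, adjusted p = 0.419).

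Of the 3 other GABA-A subunit genes that passed the filter, 1 was lower and 0 were higher by limma (2 and 0 at an unadjusted p under 0.05, and 2 and 0 with the replicate block). The matching shares of all tested genes that were lower were 16.3%, 23.3% and 22.1%. The 19 GABA-A subunit genes of the table include those called lower above. Of the 19, 12 passed the filter and 1 was at 0 in all libraries. Their summed FPKM was 378 to 401 in fed and 331 to 365 in fasted libraries, without overlap. This sum depends on the scaling between libraries, and other scalings of it were not tried.

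The GABA-B receptor is an obligate pair of Gabbr1, which binds GABA, and Gabbr2, which couples to the G protein. Gabbr1 was the most abundant of the 28 genes, at 147, 146, 141 and 138 FPKM in fed replicates 1 to 4 and 139, 128, 128 and 125 FPKM in fasted replicates 1 to 4. The fasted library was lower in 4 of 4 replicate numbers, and the groups overlapped only through fed replicate 4 and fasted replicate 1. For Gabbr1 the log2 change was -0.13 with SE 0.0547 (limma adjusted p = 0.0917), and it passed with the replicate block (0.0223) and with GC and length offsets (0.0222). Over the 19 alternatives its log2 change ran from -0.17 to -0.01 and its adjusted p from 0.0222 to 0.963. Gabbr2 averaged 66.6 FPKM ± 1.56 in fed and 63.6 ± 2.51 in fasted cortex (SD, n = 4 per group), with a log2 change of -0.07 (limma adjusted p = 0.351). The ratio of Gabbr1 to Gabbr2 was 2.03 to 2.25 in fed and 1.88 to 2.21 in fasted libraries (exact permutation p = 0.314, adjusted 0.419).

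Among 10 further tested genes of GABA-B signalling, 3 were lower and 0 higher by limma, 3 and 0 at an unadjusted p under 0.05, and 4 and 0 with the replicate block. Over all tested genes the shares lower were 16.3%, 23.3% and 22.1% in the same order. Kctd16, which encodes an auxiliary subunit of the receptor, averaged 12.6 FPKM ± 2.84 in fed and 8.6 ± 1.01 in fasted cortex (SD, n = 4 per group), a log2 change of -0.48 (limma adjusted p = 0.0180). Its call ended with GC and length offsets (0.0668) and with the equal sum that leaves out the 10 most abundant genes (0.0627). Kcnj3 and Kcnj9 encode GIRK1 and GIRK3, subunits of potassium channels opened through the receptor, and had log2 changes of -0.22 and -0.14 (limma adjusted p = 0.0102 and 0.0487). The call of Kcnj3 ended with equal-sum scaling (0.549). That of Kcnj9 ended under 14 of 19 alternatives, with any library but fed replicate 4 left out among them, and its adjusted p ran from 0.0185 to 0.927.

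Gad1 encodes GAD67, the decarboxylase that makes most of the GABA in the brain. Its level was 72.2, 69.9, 65.6 and 62.8 FPKM in fed replicates 1 to 4 and 77.2, 71.0, 78.6 and 71.7 FPKM in fasted replicates 1 to 4. The fasted library was the higher one in 4 of 4 replicate numbers, and the groups overlapped. The log2 change of 0.14 with SE 0.0609 did not pass (limma adjusted p = 0.112). It passed as higher under 5 of 19 alternatives: the replicate block (adjusted p = 0.0385), median-ratio scaling (0.0173), quantile scaling (0.00907), GC and length offsets (0.0116) and the equal sum without the 10 most abundant genes (0.0114). Its highest adjusted p over the 19 was 0.252. Gad2, which encodes the terminal enzyme GAD65, averaged 26.4 FPKM ± 0.617 in fed and 27.1 ± 1.61 in fasted cortex (SD, n = 4 per group), with a log2 change of 0.03 (95% interval -0.08 to 0.15, limma adjusted p = 0.670). The ratio of Gad1 to Gad2 was 2.33 to 2.79 in fed and 2.65 to 2.86 in fasted libraries (exact permutation p = 0.2, adjusted 0.419).

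Slc32a1, which encodes the vesicular transporter VGAT, averaged 14.9 FPKM ± 1.38 in fed and 14.5 ± 0.467 in fasted cortex (SD, n = 4 per group), with a log2 change of -0.03 (95% interval -0.17 to 0.11, limma adjusted p = 0.746). Abat, which encodes the mitochondrial transaminase that breaks GABA down, averaged 53.5 FPKM ± 3.09 in fed and 53.7 ± 3.10 in fasted cortex (SD, n = 4 per group), with a log2 change of 0.00 (95% interval -0.13 to 0.14, limma adjusted p = 0.976). Neither gene passed under any of the 19 alternatives. Slc6a11 encodes GAT3, the GABA transporter of astrocytes, and was at 32.2, 33.1, 30.6 and 29.6 FPKM in fed replicates 1 to 4 and 30.8, 28.2, 28.1 and 27.4 FPKM in fasted replicates 1 to 4. The fasted library was lower in 4 of 4 replicate numbers, with overlapping groups. For Slc6a11 the log2 change was -0.13 with SE 0.0553 (limma adjusted p = 0.110), and it passed with the replicate block (0.0379) and with GC and length offsets (0.0290). With equal-sum scaling the Slc6a11 change was -0.01 (adjusted p = 0.979). Of 12 astrocyte markers 4 were lower and 2 higher, 50% called against 25.8% of all tested genes. None of the markers was at 0 in all libraries, and their summed FPKM was 857 to 929 in fed and 849 to 930 in fasted libraries. Their part in the Slc6a11 values was not tested.

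Of 14 further tested genes of GABA supply and breakdown 2 were lower and 1 was higher (16.3% and 9.56% over all tested genes). With the replicate block 3 were lower and 3 higher (22.1% and 14.3% over all tested genes). The 3 called without the block encode carriers of glutamine and other neutral amino acids. Such carriers take part in moving precursors of GABA between astrocytes and neurons. Which cells of the tissue the 3 transcripts came from was not tested. Slc38a5 averaged 1.63 FPKM ± 0.0972 in fed and 0.479 ± 0.0818 in fasted cortex (SD, n = 4 per group), a log2 change of -0.83 (limma adjusted p = 3.70e-05). It passed the filter through the fed libraries alone, all 4 fasted ones being below 1 FPKM, and so was not tested when a fed library was left out. With no filter its adjusted p was 1.33e-04. Slc38a3, the astrocytic carrier SNAT3, averaged 18.3 FPKM ± 1.94 in fed and 11.7 ± 0.914 in fasted cortex (SD, n = 4 per group), a log2 change of -0.59 (limma adjusted p = 5.89e-04). Slc38a2 was higher, at 22.5 FPKM ± 1.95 in fed and 27.0 ± 1.25 in fasted cortex (SD, n = 4 per group), a log2 change of 0.26 (limma adjusted p = 0.0159), and its adjusted p was 0.0501 without fasted replicate 3.

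Gphn encodes gephyrin, the scaffold that anchors GABA-A and glycine receptors. It was at 18.8, 19.2, 19.05 and 19.7 FPKM in fed replicates 1 to 4 and 20.003, 20.2, 21.3 and 19.9 FPKM in fasted replicates 1 to 4. The groups stood apart by a small gap, with fasted libraries higher, and the log2 change of 0.08 did not pass (95% interval -0.02 to 0.18, limma adjusted p = 0.213). Nlgn2, which encodes the adhesion protein neuroligin 2 of inhibitory synapses, averaged 46.8 FPKM ± 2.07 in fed and 49.1 ± 4.49 in fasted cortex (SD, n = 4 per group), with a log2 change of 0.06 (limma adjusted p = 0.520).

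Of 27 further tested genes of the inhibitory synapse and receptor traffic 6 were lower and 2 higher (16.3% and 9.56% over all tested genes). Mdga1, whose product binds neuroligin 2, averaged 2.996 FPKM ± 0.320 in fed and 1.75 ± 0.256 in fasted cortex (SD, n = 4 per group), a log2 change of -0.54 (limma adjusted p = 0.00136). Plcl1, whose product binds GABARAP, and Gabarap itself were lower by log2 changes of -0.26 and -0.23 (limma adjusted p = 0.00673 and 0.0209). Mocs1, an enzyme gene of molybdenum cofactor synthesis, was higher by 0.25 (limma adjusted p = 0.0143). Equal-sum scaling ended the calls of Plcl1 (0.302) and Gabarap (0.494). The adjusted p of Gabarap was also 0.0532 or 0.0638 when fed replicate 1 or 2 was left out, and 0.0651 or 0.0527 when fasted replicate 3 or 4 was.

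Among the 8 interneuron genes 2 were lower and 0 higher by limma, with 3 and 0 at an unadjusted p under 0.05 and 3 and 0 with the replicate block. The shares of all tested genes that were lower came to 16.3%, 23.3% and 22.1% in this order. Dlx6os1, also known as Evf2, is a long non-coding RNA gene at the Dlx5/6 homeobox locus on chromosome 6 (6820189 to 6871592). It was at 2.86, 3.44, 3.33 and 4.32 FPKM in fed replicates 1 to 4 and 1.95, 1.96, 2.08 and 2.28 FPKM in fasted replicates 1 to 4. Every fasted library was below every fed one, and the fasted libraries varied little. Its log2 change came to -0.54 with SE 0.0916 (limma adjusted p = 0.00196), which understates the change of a gene this low, as the mean was 40.7% lower. It was called under 19 of 19 alternatives. Dlx6, which it overlaps on the other strand, had a log2 change of 0.30 (limma adjusted p = 0.0545), and reads from the overlap cannot be told apart if strand was not used.

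Sox6, on chromosome 7 at 115470872 to 116038796, encodes a transcription factor of interneurons from the medial ganglionic eminence and of oligodendrocyte precursors. It was at 2.44, 2.80, 2.54 and 2.80 FPKM in fed replicates 1 to 4 and 2.06, 2.08, 2.08 and 1.95 FPKM in fasted replicates 1 to 4. The groups did not overlap, and the fasted libraries varied little. The log2 change was -0.26 with SE 0.0619 (limma adjusted p = 0.0110), the mean was 22.8% lower, and the call ended with equal-sum scaling (log2 change -0.17, adjusted p = 0.254). Of 8 oligodendrocyte precursor markers 3 were lower and 0 higher (3 and 0 at an unadjusted limma p under 0.05). Of all tested genes 16.3% were lower, and 23.3% at the unadjusted p. None of the markers was at 0 in all libraries, and their summed FPKM was 72.7 to 81.5 in fed and 63.7 to 74.1 in fasted libraries. Their part in the Sox6 result was not tested. Lhx6, a homeobox gene of the same interneuron lineage, averaged 5.73 FPKM ± 0.308 in fed and 5.79 ± 0.558 in fasted cortex (SD, n = 4 per group), with a log2 change of 0.01 (95% interval -0.14 to 0.16, limma adjusted p = 0.915).

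Calb2 encodes calretinin, a calcium-binding protein of interneurons that mostly inhibit other interneurons. It was at 8.90, 8.38, 7.11 and 6.92 FPKM in fed replicates 1 to 4 and 7.6, 6.20, 6.26 and 4.81 FPKM in fasted replicates 1 to 4. The fasted library was lower in 4 of 4 replicate numbers, and the groups overlapped, since replicate 1 was the highest and replicate 4 the lowest in both. Its log2 change came to -0.30 with SE 0.112 (limma adjusted p = 0.0731). The adjusted p was 0.00504 with the replicate block, 0.0248 without fasted replicate 1, 0.0496 without fed replicate 4 and 0.0363 with the equal sum that leaves out the 10 most abundant genes. Without fasted replicate 4, its lowest library, the change was smaller (-0.20, adjusted p = 0.166), as it was without fed replicate 1 (-0.24, adjusted p = 0.170).

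Pvalb, which encodes the calcium buffer parvalbumin of fast-spiking cells, was at 32.8, 25.4, 25.1 and 23.1 FPKM in fed replicates 1 to 4 and 24.4, 22.4, 24.2 and 24.0 FPKM in fasted replicates 1 to 4. Fed replicate 1 stood above the other libraries, and the groups overlapped. The log2 change of -0.15 did not pass (limma adjusted p = 0.253), and without fed replicate 1 it was smaller (-0.05, adjusted p = 0.621). Erbb4, which encodes the neuregulin receptor of interneurons, was at 4.30, 5.10, 5.70 and 8.77 FPKM in fed replicates 1 to 4 and 5.63, 6.16, 8.14 and 7.43 FPKM in fasted replicates 1 to 4. Its log2 change was 0.20 (limma adjusted p = 0.419), and it passed as higher without fed replicate 4, the highest library (log2 change 0.37, adjusted p = 0.0328). It was smaller without fed replicate 1 (0.08, adjusted p = 0.760) and without fasted replicate 3 (0.12, adjusted p = 0.674).

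Dlx1, a homeobox gene of interneuron maturation, averaged 4.48 FPKM ± 0.502 in fed and 4.27 ± 0.433 in fasted cortex (SD, n = 4 per group), with a log2 change of -0.06 (limma adjusted p = 0.640). Its antisense neighbour Dlx1as had a log2 change of -0.38 (limma adjusted p = 0.00164), and the same limit on strand holds for this pair. Reln, which encodes the secreted protein reelin, averaged 6.50 FPKM ± 0.881 in fed and 6.29 ± 0.639 in fasted cortex (SD, n = 4 per group), with a log2 change of -0.04 (limma adjusted p = 0.789).

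In a longer list of interneuron genes, 38 tested outside the 28, 7 were lower and 2 higher (16.3% and 9.56% over all tested genes). With the replicate block 7 were lower and 3 higher (22.1% and 14.3% over all tested genes). Satb1, a chromatin organizer gene also expressed in other cortical neurons, averaged 28.6 FPKM ± 0.378 in fed and 23.8 ± 0.755 in fasted cortex (SD, n = 4 per group), a log2 change of -0.25 (limma adjusted p = 0.00252). Calb1, which encodes calbindin and is also expressed in pyramidal cells of the upper layers, averaged 37.1 FPKM ± 4.07 in fed and 27.8 ± 1.2 in fasted cortex (SD, n = 4 per group), a log2 change of -0.40 (limma adjusted p = 0.00311). Elfn1, a synaptic organizer gene of somatostatin cells, and Crh, which encodes corticotropin-releasing hormone, had log2 changes of -0.33 and -0.30 (limma adjusted p = 0.00440 and 0.0120). With equal-sum scaling the calls of Satb1, Calb1, Elfn1 and Crh ended (adjusted p = 0.411, 0.0568, 0.135 and 0.178), and that of Crh also ended with GC and length offsets (0.120). The summed FPKM of the whole list was 944 to 1185 in fed and 958 to 1055 in fasted libraries, with overlap. Of 12 excitatory markers 5 were lower and 1 was higher, 50% called against 25.8% of all tested genes. Their sum was 1720 to 2151 in fed and 1757 to 2030 in fasted libraries.

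Slc12a5, the chloride exporter KCC2 of mature neurons, was at 71.6, 76.2, 69.4 and 70.4 FPKM in fed replicates 1 to 4 and 75.3, 74.3, 66.5 and 71.7 FPKM in fasted replicates 1 to 4. Slc12a2, the importer NKCC1, which in mature brain is found mostly in glia and vessels, was at 11.4, 11.9, 12.8 and 12.3 FPKM in fed replicates 1 to 4 and 12.4, 11.7, 12.8 and 11.5 FPKM in fasted replicates 1 to 4. The libraries of both groups were interleaved for each gene. The log2 change was 0.00 for Slc12a5 (95% interval -0.12 to 0.12, limma adjusted p = 0.997) and 0.00 for Slc12a2 (95% interval -0.12 to 0.13, limma adjusted p = 0.978). The ratio of Slc12a5 to Slc12a2 was 5.41 to 6.43 in fed and 5.20 to 6.37 in fasted libraries, a difference of 0.00 between the groups on the log2 scale (exact two-sided permutation p = 1).

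Of 17 further tested genes of chloride and bicarbonate transport and its kinases 3 were lower and 1 was higher (16.3% and 9.56% over all tested genes). With the replicate block 5 were lower and 2 higher (22.1% and 14.3% over all tested genes). Neto2, whose product binds KCC2 and kainate receptors, had a log2 change of -0.38 (limma adjusted p = 0.00156). Wnk2, a kinase gene of a family that regulates KCC2 and NKCC1, had one of 0.34 (limma adjusted p = 0.00173). Car2, a carbonic anhydrase gene that is also strong in oligodendrocytes, averaged 51.0 FPKM ± 5.42 in fed and 33.4 ± 1.78 in fasted cortex (SD, n = 4 per group), a log2 change of -0.59 (limma adjusted p = 4.21e-04). Of 10 oligodendrocyte markers 1 was lower and 2 were higher, beside 16.3% and 9.56% of all tested genes. Equal-sum scaling ended the call of Neto2 (0.0739).

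**Figure D5:**
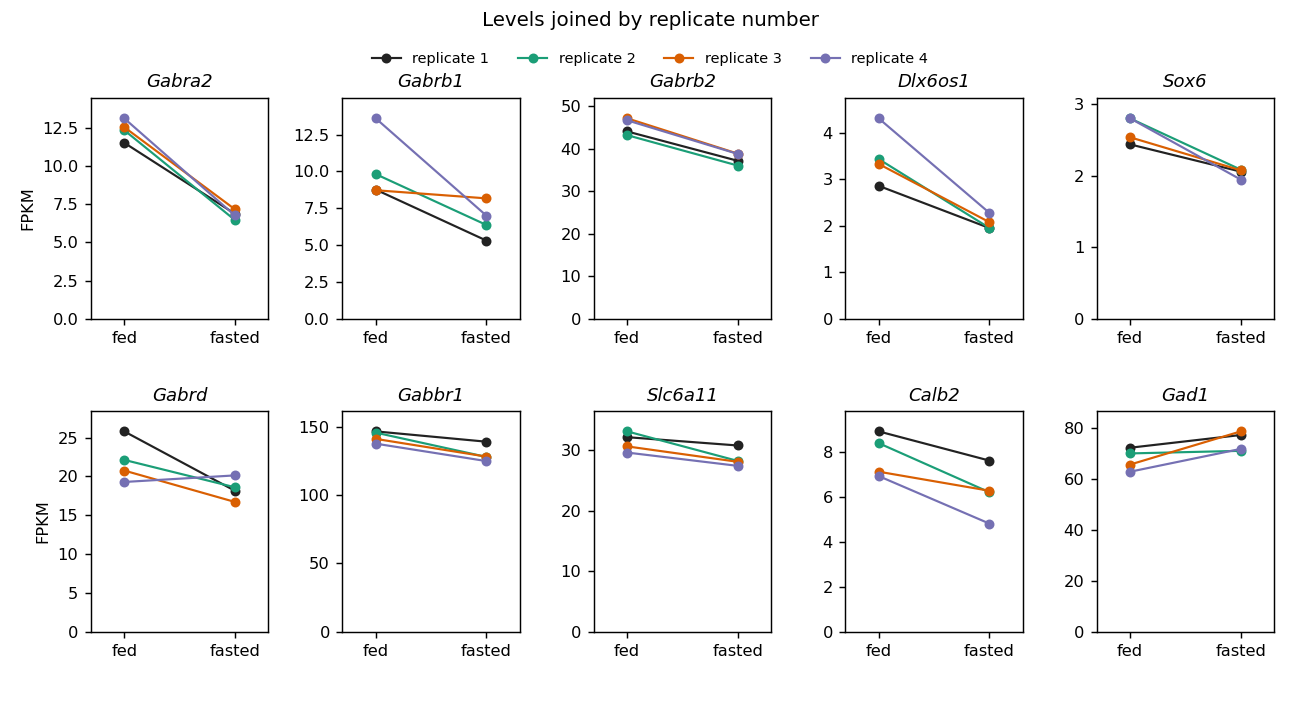
FPKM of the 5 genes called lower and the 5 that were called once the replicate block was added, with the fed and the fasted library of the same replicate number joined. The lines fall in 4 of 4 numbers for Gabra2, Gabrb1, Gabrb2, Dlx6os1, Sox6, Gabbr1, Slc6a11 and Calb2, fall in 3 of 4 for Gabrd, and rise in 4 of 4 for Gad1. For the 5 genes called lower the groups do not overlap, so their lines fall under any pairing.

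The longest annotated transcripts of the 5 genes called lower were 38.2% to 46.1% G and C, with a median of 40.9%. The other 23 genes ranged from 35.3% to 61.9% with a median of 50.2%, and the median was 49.7% over all tested genes and 48.6% over those called lower. With offsets for GC content and length, 7 of the 28 genes were lower, these 5 among them, and 2 were higher, beside 16.4% and 16.0% of all tested genes. The 5 were also called lower with any 1 of the 8 libraries left out.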

How the data were processed

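Expression in 8 libraries was read from the authors' deposited table, which holds FPKM per gene symbol. The submitters' processing notes name TopHat and the mm10 build. No source used here gives the version, quantifier, annotation or use of strand. Groups came from the treatment labels, and replicate numbers from the titles.

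The row with the highest mean was kept per symbol. Coordinates, GC content and lengths came from GENCODE M21 (GRCm38, the assembly of mm10), which matched 23284 symbols. Genes that reached 1 FPKM in 4 or more libraries were tested with limma 3.58.1 (R 4.3.3) on log2(FPKM + 1), with trend and robust moderation and group as the only term, at a Benjamini-Hochberg adjusted p under 0.05 over 12377 genes. Changes on this scale understate those of low genes. The labels do not say that libraries came from separate mice, so p-values measure the spread between these samples. The scripts were tested on simulated data. Ratios and shares used exact permutation tests. FPKM hold no counts, so no counting interval is given. Promoters are from RefSeq, with entries for 24 of the 28 genes.

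The 28 genes and the lists were chosen with earlier results of these data known. All 28 are named, and from each further list up to 4 called genes with the smallest p. A few genes are counted but not reported here. The 19 alternatives cover pseudocount, filter, scaling, moderation, terms and left-out libraries. Replicate numbers were taken to pair the libraries on the evidence of the values, since no label states it: deviations from the group means correlated between same-numbered libraries at r = 0.574, 0.496, 0.382 and 0.523 across all tested genes, and at 0.335, 0.193, 0.0761 and 0.371 across 11155 autosomal coding genes. Libraries of different number ranged from -0.546 to 0.381 and from -0.348 to 0.227. Of the 8 libraries 8 correlated best with their own number over all tested genes, which include Xist and Y-linked genes that alternate between odd and even numbers except in fed replicate 3, and 5 did over autosomal coding genes.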

Additional observations from a re-analysis of the deposited data

Results flagged for a closer look

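In 6 of 106 sets of 4 libraries looked at, 1 library lay far from the other 3 by Dixon's test at 95%, where chance gives about 1 in 20. Reln was at 5.33 FPKM in fasted replicate 4, against 6.57 to 6.63 in the other 3. Kcnj3 was at 26.5 FPKM in fasted replicate 2, against 28.9 to 29.2 in the other 3. Mdga1 was at 3.47 FPKM in fed replicate 2, against 2.78 to 2.90 in the other 3. It was at 1.37 FPKM in fasted replicate 2, against 1.84 to 1.93 in the other 3. Crh was at 2.99 FPKM in fed replicate 2, against 3.36 to 3.40 in the other 3. It was at 2.11 FPKM in fasted replicate 2, against 2.58 to 2.65 in the other 3. All but the Reln value thus lay in replicate number 2.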

How the results depend on the processing

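Gabra2 and Dlx6os1 were called lower under 19 of 19 alternatives, and Gabrb1, Gabrb2 and Sox6 under 18 each, and none of the 5 changed direction. Of the 28 genes 0 were higher as reported, 1 with median-ratio scaling, the replicate block or the equal sum without the 10 most abundant genes, and 2 with equal-sum scaling, quantile scaling or GC and length offsets. The number lower was 5 as reported, 3 with equal-sum scaling and 9 with the replicate block. With 1 library left out, 0 to 2 were higher and 5 to 7 lower, the highest of both without fed replicate 4. Over all genes, 1792 were higher with quantile scaling and 1976 with GC and length offsets against 1183, and 532 were lower with equal-sum scaling against 2015. With the replicate block 1773 were higher and 2733 lower, and with 1 library left out 833 to 1193 and 1362 to 2529. The cause of these differences was not tested. The GC and length offsets and the equal sum without the 10 most abundant genes were chosen after seeing the data. With equal-sum scaling Gabra3, Gabra4, Gabbr2, Slc32a1, Dlx1 and Reln, called under no alternative, had positive changes. The exact sign-flip test of ratios and shares within replicate numbers cannot reach the threshold (smallest p = 0.125) and says nothing here. Depth limits the thinnest of the 28 genes, Calb2, Dlx6os1 and Gabrg1, estimated at 134, 152 and 249 fragments in their lowest library. Fragments were not estimated for the named genes outside the 28. Of those Slc38a5 was the lowest, at 0.371 FPKM in fasted replicate 3, and depth limits it too.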
